A study of Mus musculus with 14 samples.

Results

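The 10 genes described here, H2-K1, H2-D1, B2m, Tap1, Tap2, Tapbp, Nlrc5, Psmb8, Psmb9 and Erap1, make and load the MHC class I molecules that show peptides to T cells. They were taken by symbol from a table of 55291 genes. All 10 were found, and all 10 passed the filter on low counts that left 17933 genes. Total RNA was taken from nodules of lung tumors, snap frozen, in C57BL/6 mice. Every group carries the genotype HER2 Exon20YVMA, an insertion in a receptor tyrosine kinase. Resistant nodules had acquired resistance to mobocertinib given alone (n = 3 libraries). The other groups had long-term combination of both drugs (n = 3), T-DM1 (n = 3), mobocertinib, also named TAK-788 (n = 3), or vehicle (n = 2). Mobocertinib is a tyrosine kinase inhibitor, while T-DM1 joins a HER2 antibody to a microtubule poison. The labels used here state no ages, no doses, no promoter for the allele and no number of animals. P-values therefore measure only the spread between these samples, which may be technical.

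A class I molecule is a heavy chain, such as the products of H2-K1 and H2-D1, bound to beta-2-microglobulin, the product of B2m. Proteasomes cut proteins into peptides, and interferon-gamma swaps in the immunoproteasome subunits that Psmb8 and Psmb9 encode. The TAP1 and TAP2 transporter moves peptides into the endoplasmic reticulum, where ERAP1 trims them and tapasin, the product of Tapbp, helps to load them. Nlrc5 encodes a transactivator of class I genes. Tumors can reduce class I display by lowering some of these genes, so their level under drug and at resistance is of interest in lung cancer.

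In 6 comparisons between drug-treated groups, no member passed the test after adjustment. Tapbp lay lower in all 3 resistant libraries than in every combination, T-DM1 and mobocertinib library, though narrowly for mobocertinib (227 against 231 CPM). In TPM the resistant and mobocertinib libraries overlapped, with resistant 1 at 143.64 against 121.5 in mobocertinib 1. Libraries did not overlap for 12.5%, 16.3% and 10.1% of all genes in these 3 comparisons. Against vehicle, Psmb8 fell in all 4 other groups, while Psmb9 fell and Erap1 rose in resistant nodules. Of all genes, 31.7% to 41% were called against vehicle. None of the 6 calls of members held in all alternatives, and the vehicle libraries stood apart in the lengths of the RNAs they held. Messenger RNAs under 1000 bases took 8.14% to 14.3% of counts in the other 12 libraries, against 30.8% and 36.5% in vehicle 1 and 2. Those over 5000 bases took 11.6% to 18.9% of counts in the 12 drug-treated libraries, against 5.49% and 4.06% in vehicle. For ribosomal protein genes the share was 3.42% to 7.22% in drug-treated libraries, against 19.4% and 20.1% in vehicle. Library totals were 19344015 to 31287261 counts. Epcam, a marker of epithelium, stood at 168 to 435 CPM (counts scaled to library size with TMM factors), and Nkx2-1, a transcription factor of lung epithelium, at 75.2 to 224 CPM, so both markers of lung epithelium had counts in every library. Fewer cells of a type and less RNA per cell cannot be told apart in these bulk nodules.

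Levels in TPM, which allow for transcript length and library size, ranked the members. Over the 14 libraries, H2-D1 had a median of 1900 TPM, B2m of 1570 and H2-K1 of 1200. Tapbp had a median of 150 TPM, Psmb8 of 118, Psmb9 of 50.9, Tap2 of 46.9 and Tap1 of 29.1. Erap1 had 12.1 TPM and Nlrc5 3.48, the lowest of the set. The ranges of neighbors in this order overlapped, except that every library of H2-K1 (308.64 to 3358.47 TPM) lay above every library of Tapbp (31.64 to 214.98 TPM). The deepest count of a member was 106966 reads for H2-D1, and the thinnest was 60 for Nlrc5 in mobocertinib 1, so Nlrc5 carries the most counting error.

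**Figure D1:**
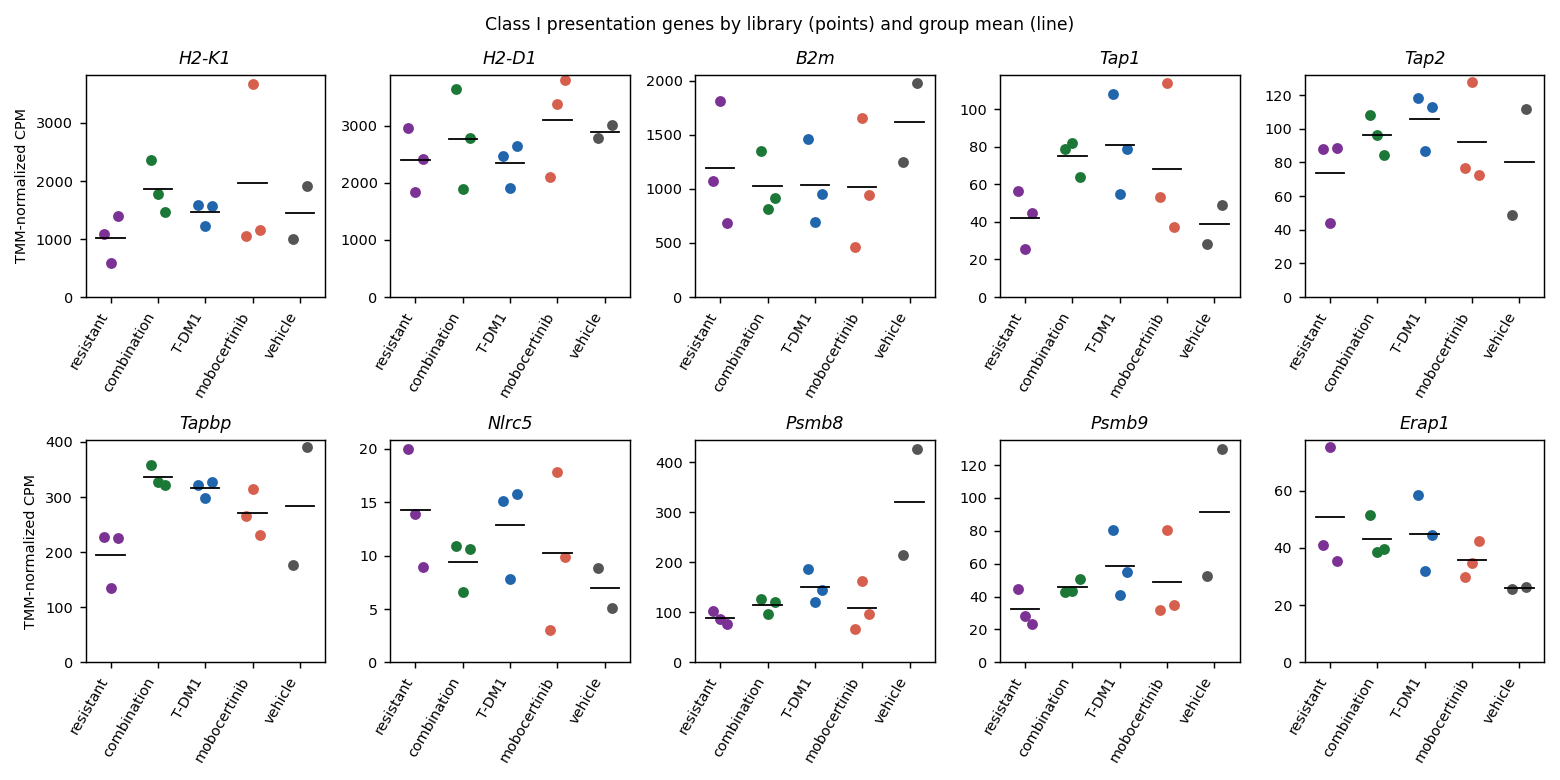
TMM-normalized CPM of the 10 members (linear axes from 0) in each library, with points for libraries, black lines for group means, and groups in the order resistant, combination, T-DM1, mobocertinib, vehicle. Psmb8 is lower in the 12 libraries outside vehicle (66.8 to 187 CPM) than in both vehicle libraries (215 and 427 CPM), while mobocertinib 2 stands far above its group in H2-K1 (3683 CPM).

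The heavy chain genes differed in how much they varied. H2-K1 stood at 1084, 589.5 and 1392 CPM in resistant nodules, 2362, 1773 and 1456 in the combination, 1587, 1221 and 1565 in T-DM1, 1052, 3683 and 1149 in mobocertinib, and 1003 and 1914 in vehicle. The highest library, mobocertinib 2, was 6.25 times the lowest, resistant 2, and every group overlapped vehicle. H2-D1 varied less, with 2967, 1837 and 2414 CPM in resistant nodules, 3636, 1893 and 2780 in the combination, 2469, 1912 and 2644 in T-DM1, 2102, 3388 and 3802 in mobocertinib, and 2778 and 3024 in vehicle. Its highest library was 2.07 times its lowest, and only the T-DM1 libraries all lay below both vehicle libraries. H2-K1 lies on chromosome 17 of mm10 (33996017 to 34000347, minus strand) and H2-D1 on the same chromosome (35262730 to 35267499, plus strand). Of the 50-base words of their longest coding transcripts, 8.79% for H2-K1 and 14.32% for H2-D1 also occur in transcripts of other genes, mostly other class I genes, so reads there may be split and both levels are uncertain to that extent.

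The 250 bases before the RefSeq start are shown for the 2 heavy chains and B2m because their products form 1 complex and their RNA levels are compared with each other below. The RefSeq promoter table (GRCm38.p6) held 8 of the 10 members, without Tap2 and Nlrc5. Capitals mark every match, on either strand, to 5 motifs known from class I promoters or interferon signaling. These were GAANNGAAA (a form of the interferon-stimulated response element), TTCNNNGAA (the gamma-activated site), GGGNNTTCC (a form of the kappaB site), TGACG (the core of a cyclic AMP response element) and CCAAT. No matches of different motifs overlap in the sequences printed.
H2-K1 (chr17:34000348-34000597, minus strand): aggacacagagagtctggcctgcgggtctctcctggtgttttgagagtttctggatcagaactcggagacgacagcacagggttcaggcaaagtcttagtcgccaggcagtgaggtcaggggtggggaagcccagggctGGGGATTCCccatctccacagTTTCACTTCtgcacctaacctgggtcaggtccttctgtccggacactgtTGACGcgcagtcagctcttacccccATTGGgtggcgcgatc
H2-D1 (chr17:35262844-35263093, plus strand): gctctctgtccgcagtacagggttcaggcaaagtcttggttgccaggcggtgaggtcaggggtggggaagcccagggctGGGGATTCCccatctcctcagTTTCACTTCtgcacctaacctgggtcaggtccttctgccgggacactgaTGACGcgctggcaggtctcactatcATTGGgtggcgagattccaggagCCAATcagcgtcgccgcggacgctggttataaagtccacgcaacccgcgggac
B2m (chr2:122147437-122147686, plus strand): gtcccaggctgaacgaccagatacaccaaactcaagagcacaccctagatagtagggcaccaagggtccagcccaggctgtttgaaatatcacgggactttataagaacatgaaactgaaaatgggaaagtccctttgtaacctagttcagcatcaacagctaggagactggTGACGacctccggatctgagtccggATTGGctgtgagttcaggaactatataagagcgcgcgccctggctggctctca
The windows of H2-K1 and H2-D1 matched at 166 of 190 aligned bases (87.4%). Both hold GGGNNTTCC first, then GAANNGAAA on the opposite strand, then TGACG and CCAAT, in the same order. The window of B2m holds TGACG and CCAAT and no match to GGGNNTTCC or GAANNGAAA as spelled. It does hold gaaactgaaa and, read on the opposite strand, ggaaagtccc, forms 1 base longer than these patterns, which the search could not match. A lack of either element in B2m is therefore not shown. The shares and counts that follow are of the patterns as spelled, not of all forms of these elements. Among 27025 promoter windows of the same length, GAANNGAAA occurred in 6.34%, TTCNNNGAA in 7.18%, GGGNNTTCC in 4.88%, TGACG in 17.9% and CCAAT in 34.5%. Of the 8 members, 2 held GAANNGAAA, 1 (Psmb8) held TTCNNNGAA, 2 held GGGNNTTCC, 5 held TGACG and 6 held CCAAT.

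B2m, the shared light chain, had other high and low libraries than the heavy chains. It stood at 1073, 1811 and 686 CPM in resistant nodules, 1353, 813 and 915 in the combination, 1455, 690 and 950 in T-DM1, 460, 1653 and 946 in mobocertinib, and 1246 and 1984 in vehicle, with each group overlapping vehicle. In resistant 2, B2m was the second highest of the 14 libraries while H2-K1 and H2-D1 were the lowest. The ratio of TPM of B2m to H2-K1 was 6.23 in resistant 2 and 0.806 to 2.37 in the other 13 libraries. B2m lies on chromosome 2 (122147686 to 122153083, plus strand) and shares no exon bases or 50-base words with other genes.

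The transporter and tapasin genes were lowest in resistant 2. Tap1 stood at 56.7, 25.4 and 44.6 CPM in resistant nodules, 79, 81.9 and 63.7 in the combination, 108, 55.1 and 78.9 in T-DM1, 53, 114 and 37.3 in mobocertinib, and 28.3 and 49.1 in vehicle. The combination and T-DM1 libraries all lay above both vehicle libraries, but neither difference passed (0.95 ± 0.48, adjusted p = 0.137 for the combination and 1.06 ± 0.48, adjusted p = 0.106 for T-DM1, log2 fold change ± SE, edgeR). Tap2, the other transporter subunit, stood at 88, 43.9 and 88.7 CPM in resistant nodules, 108, 96 and 84.6 in the combination, 118, 86.6 and 113 in T-DM1, 76.4, 128 and 72.3 in mobocertinib, and 48.9 and 112 in vehicle, where the 2 libraries spanned most of that range. Tapbp was even within the combination and within T-DM1, with 227, 135 and 225 CPM in resistant, 359, 328 and 321 in the combination, 321, 298 and 328 in T-DM1, 265, 315 and 231 in mobocertinib, and 176 and 391 in vehicle. All 3 resistant libraries lay below all 3 mobocertinib libraries for Tapbp (−0.46 ± 0.29, adjusted p = 0.648), and all 3 combination libraries lay above the mobocertinib ones (0.32 ± 0.29, adjusted p = 1). The resistant libraries also lay below all 3 combination libraries (−0.78 ± 0.29, adjusted p = 0.596) and all 3 T-DM1 libraries (−0.69 ± 0.29, adjusted p = 0.345). These orders are in CPM. In TPM, Tapbp in mobocertinib (121.5 to 177.24) overlapped both resistant nodules (79.4 to 143.64) and the combination (172.86 to 214.98). Tap1 (34187553 to 34197225), Tap2 (34203527 to 34216321) and Tapbp (33915899 to 33929292) lie on the plus strand of chromosome 17.

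The immunoproteasome genes were highest in vehicle 2. Psmb8, whose product replaces PSMB5, stood at 103, 86.5 and 76 CPM in resistant nodules, 126, 97.3 and 121 in the combination, 187, 121 and 144 in T-DM1, 66.8, 163 and 96.5 in mobocertinib, and 215 and 427 in vehicle. Every library outside vehicle lay below both vehicle libraries. Psmb9, whose product replaces PSMB6, stood at 44.8, 28.2 and 23.6 CPM in resistant nodules, 42.7, 43.6 and 50.4 in the combination, 80.2, 40.8 and 54.8 in T-DM1, 31.6, 80.4 and 34.8 in mobocertinib, and 52.4 and 130 in vehicle. The resistant and combination libraries lay below both vehicle libraries, and the T-DM1 and mobocertinib libraries overlapped vehicle. Psmb8 (34197721 to 34201454, plus strand) and Psmb9 (34181987 to 34187764, minus strand) flank Tap1 on chromosome 17, and the RefSeq starts of Tap1 and Psmb9 lie 226 bases apart on opposite strands.

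Erap1 and Nlrc5 have the longest transcripts of the set. Erap1 stood at 41.1, 75.3 and 35.5 CPM in resistant nodules, 51.4, 38.5 and 39.6 in the combination, 58.4, 31.8 and 44.4 in T-DM1, 29.8, 34.8 and 42.5 in mobocertinib, and 25.8 and 26.5 in vehicle. All 12 libraries outside vehicle lay above both vehicle libraries. Nlrc5 stood at 20, 13.9 and 8.9 CPM in resistant nodules, 10.9, 6.58 and 10.6 in the combination, 15.1, 7.83 and 15.8 in T-DM1, 2.99, 17.8 and 9.85 in mobocertinib, and 8.82 and 5.05 in vehicle. Only the resistant libraries all lay above both vehicle libraries, and the mobocertinib libraries of Nlrc5 spanned a 5.95-fold range. Erap1 lies on chromosome 13 (74639568 to 74693201, plus strand) and Nlrc5 on chromosome 8 (94434356 to 94527272, plus strand). Whether counting used strand is not stated in the labels, so levels are uncertain where exons are shared with neighbors, which held for 29.02% of exon bases of Tapbp, 18.46% of Tap2, 14.73% of Psmb8, 11.46% of Erap1, 5.79% of Psmb9, 3.87% of Tap1 and 0.92% of Nlrc5.

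Resistant nodules against vehicle asked what differed once tumors had escaped mobocertinib. Psmb8 fell by 1.86 ± 0.37 on the log2 scale (± SE; adjusted p = 0.0018 by edgeR's quasi-likelihood test with Benjamini-Hochberg adjustment), a 0.159- to 0.478-fold level by the 95% interval, and Psmb9 fell by 1.5 ± 0.46 (adjusted p = 0.0207). Erap1 rose by 0.95 ± 0.34 (adjusted p = 0.041). These 3 of 10 members compare with 41% of all 17933 genes called in the same edgeR fit, and the groups' libraries did not overlap for 4 of 10 members and for 54.4% of genes. The median of the members was −0.36, and that of all genes was 0.18. H2-K1 stood at −0.51 ± 0.53, H2-D1 at −0.27 ± 0.36, B2m at −0.44 ± 0.53, Tap1 at 0.13 ± 0.46, Tap2 at −0.13 ± 0.39, Tapbp at −0.53 ± 0.32 and Nlrc5 at 1.04 ± 0.62, with adjusted p of 0.195 to 0.843.

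In the combination, Psmb8 fell by 1.48 ± 0.37 (adjusted p = 0.00835), and the other 9 members did not pass. Psmb9 stood at −1.0 ± 0.46 (adjusted p = 0.11) and Erap1 at 0.72 ± 0.34 (adjusted p = 0.116). Of all genes 35% were called, and libraries did not overlap for 4 of 10 members and 63.1% of genes. In T-DM1, Psmb8 fell by 1.09 ± 0.37 (adjusted p = 0.0379), with Erap1 at 0.78 ± 0.34 (adjusted p = 0.0974) and Nlrc5 at 0.89 ± 0.62 (adjusted p = 0.282). Of all genes 31.7% were called, and libraries did not overlap for 4 of 10 members and 58.2% of genes. In mobocertinib, Psmb8 fell by 1.56 ± 0.37 (adjusted p = 0.0068), with Psmb9 at −0.89 ± 0.46 (adjusted p = 0.151) and Tap1 at 0.81 ± 0.47 (adjusted p = 0.202). Here 32.9% of all genes were called, and libraries did not overlap for 2 of 10 members and 59.4% of genes. The 4 comparisons share the 2 vehicle libraries, so the repeated fall of Psmb8 is not 4 independent results.

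The calls of Psmb8 were lost without vehicle 2. Psmb8 then stood at −1.18 in resistant (adjusted p = 0.0546), −0.77 in the combination (adjusted p = 0.204), −0.40 in T-DM1 (adjusted p = 0.529) and −0.87 in mobocertinib (adjusted p = 0.161), all by edgeR. With either vehicle library left out, the spread comes from the other groups and the lone vehicle library is assumed to vary like them. Calls over all genes were fewer as well without vehicle 2, at 4602 in resistant, against 7357 with it. In T-DM1 the call was also lost without T-DM1 2 (−0.96, adjusted p = 0.0948) or T-DM1 3 (−1.06, adjusted p = 0.0981). Psmb9 in resistant nodules was not called without vehicle 2 (−0.59, adjusted p = 0.423), resistant 2 (−1.41, adjusted p = 0.0561) or resistant 3 (−1.32, adjusted p = 0.0589). Erap1 in resistant nodules was not called without vehicle 1 (0.96, adjusted p = 0.116), vehicle 2 (1.06, adjusted p = 0.103) or resistant 2 (0.55, adjusted p = 0.139). Left out in turn, some libraries added a call. Psmb9 was lower without mobocertinib 2 in mobocertinib (−1.39, adjusted p = 0.0402) and without vehicle 1 in the combination (−1.48, adjusted p = 0.04), and Tapbp was lower without vehicle 1 in resistant nodules (−0.97, adjusted p = 0.0288).

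The members differ in transcript length, and so does the RNA that the vehicle libraries hold. The longest coding transcripts have 860 bases for B2m, 1352 for Psmb9, 1619 for H2-K1 and 1628 for Psmb8, against 5644 for Erap1 and 7578 for Nlrc5. After a correction for length and GC content in each library, Psmb8 stood at −1.09 ± 0.38 in resistant (adjusted p = 0.0453), −1.01 ± 0.38 in the combination (adjusted p = 0.0673), −0.70 ± 0.38 in T-DM1 (adjusted p = 0.191) and −1.11 ± 0.38 in mobocertinib (adjusted p = 0.0511). Psmb9 in resistant nodules stood at −0.42 ± 0.44 (adjusted p = 0.486) and Erap1 at −0.08 ± 0.23 (adjusted p = 0.802). B2m turned to 1.29 ± 0.52 in resistant (adjusted p = 0.0763), 1.24 ± 0.51 in the combination (adjusted p = 0.0936), 0.99 ± 0.51 in T-DM1 (adjusted p = 0.169) and 1.09 ± 0.51 in mobocertinib (adjusted p = 0.136). The corrected fit called 1, 0, 0 and 0 members in resistant, combination, T-DM1 and mobocertinib, where it called 29.5%, 24.4%, 22.8% and 23.1% of 17565 genes.

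**Figure D2:**
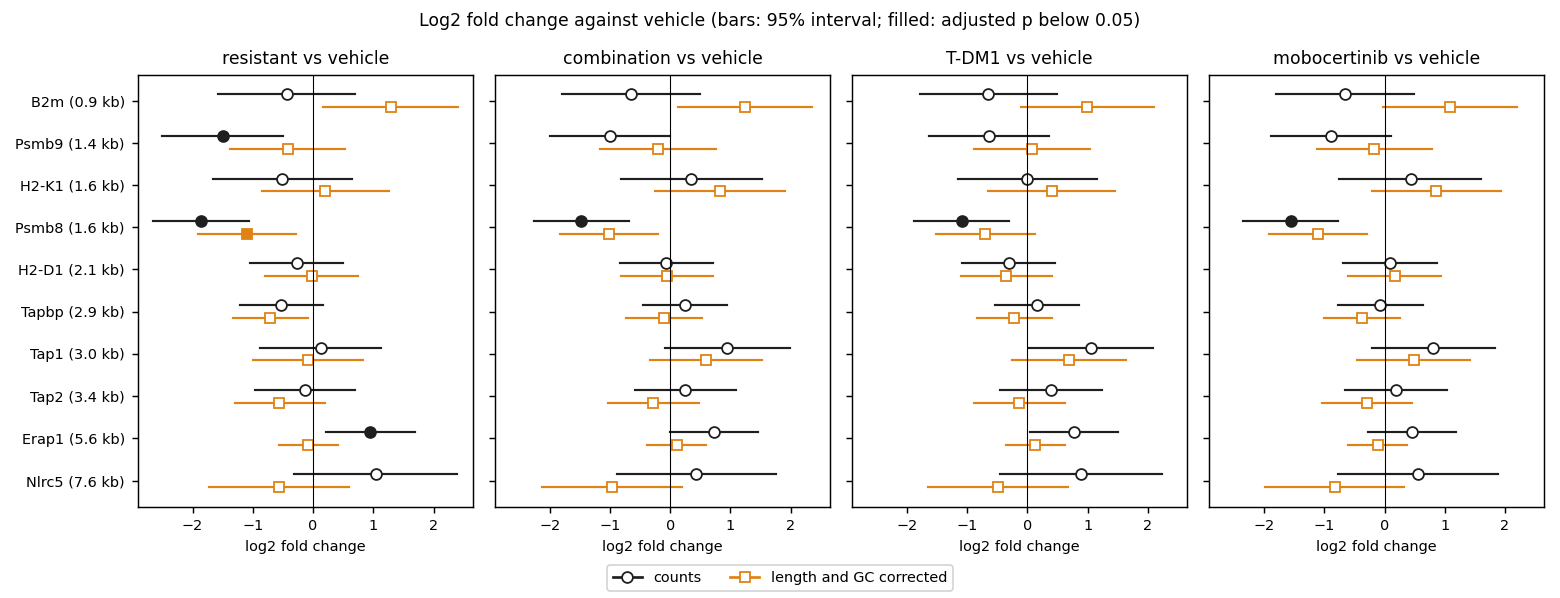
Log2 fold change of each member against vehicle in the resistant, combination, T-DM1 and mobocertinib groups, from counts (circles) and after length and GC correction (squares), with 95% intervals and filled symbols for an adjusted p below 0.05; members run down the page from the shortest transcript (B2m, 860 bases) to the longest (Nlrc5, 7578 bases). From counts, Psmb8 is called in all 4 groups, and after correction only in resistant nodules (−1.09), while B2m moves to the right of 0 in all 4.

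The authors' TPM values, which already divide by length, placed vehicle lower for most called genes, with 9410 genes higher and 755 lower in resistant, 8950 and 533 in the combination, 9056 and 554 in T-DM1, and 8669 and 490 in mobocertinib. On the log2(TPM + 1) scale the median of all genes was 1.27 in resistant, 1.18 in the combination, 1.17 in T-DM1 and 1.11 in mobocertinib, relative to vehicle. There limma called 6 of 10 members in each comparison, all higher, where it called 64.4%, 60.1%, 60.9% and 58.1% of 15774 genes. Psmb8 stood at 0.42, 0.60, 0.94 and 0.35, below the median of all genes each time, with adjusted p of 0.0772 to 0.505. Erap1 rose by 2.55, 2.36, 2.32 and 2.02 in resistant, combination, T-DM1 and mobocertinib, above that median each time. Tap1, Nlrc5 and Erap1 stood above 0 in all 4 comparisons both from counts and from TPM, and after length and GC correction Nlrc5 stood below 0 in all 4, Erap1 in resistant (−0.08) and mobocertinib (−0.11), and Tap1 in resistant (−0.09).

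Ratios within a library do not depend on its scaling, but they can depend on the lengths of RNA it holds. Psmb8 has 1628 bases and Psmb5 899, so overlap with vehicle does not show that the ratios were equal. The TPM of Psmb8 was 0.326 to 1.3 times that of Psmb5, the subunit it replaces, in resistant nodules, 0.45 to 0.734 in the combination, 0.341 to 0.88 in T-DM1, 0.222 to 0.722 in mobocertinib, and 0.488 and 0.564 in vehicle. Each group thus spanned the vehicle ratios. The TPM of Psmb9 was 0.0781 to 0.197 times that of Psmb6 in resistant nodules, 0.159 to 0.184 in the combination, 0.138 to 0.322 in T-DM1, 0.102 to 0.272 in mobocertinib, and 0.149 and 0.167 in vehicle, so these ratios overlapped as well.

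The other genes of the pathway were counted by list against vehicle. Of all genes tested, 3954 rose and 3403 fell in resistant, 3165 and 3113 in the combination, 2996 and 2680 in T-DM1, and 3015 and 2890 in mobocertinib, so 41%, 35%, 31.7% and 32.9% of genes were called as a background to each list. Of 14 constitutive proteasome subunits, 12 fell in resistant, 14 in the combination, 12 in T-DM1 and 14 in mobocertinib, and none rose, with medians of −1.55, −1.47, −1.34 and −1.41. Their transcripts have a median length of 1162 bases, and after length and GC correction 5, 4, 4 and 4 fell and 1, 0, 0 and 0 rose. Psmb5, the subunit that PSMB8 replaces, stood at −1.40 ± 0.35 in resistant nodules (adjusted p = 0.0069) and at 0.16 ± 0.27 after correction (adjusted p = 0.679). In resistant nodules Psma5 changed by −2.10 ± 0.23 (adjusted p = 6.46e-05) and Psmb1 by −2.05 ± 0.25 (adjusted p = 9.75e-05), and corrected values were −1.07 and −1.85. Of 6 further immunoproteasome and activator genes, 4 fell and 2 rose in resistant, 4 fell and 2 rose in the combination, 3 fell and 1 rose in T-DM1, and 4 fell and 1 rose in mobocertinib, with medians of −1.47, −1.25, −0.90 and −1.28. After correction 3, 1, 1 and 2 fell and none rose. Psme2, a subunit of the PA28 activator, fell by 2.36 ± 0.29 (adjusted p = 9.79e-05), to 83.2 to 99 CPM in resistant nodules, against 320 and 611 CPM in vehicle, and Psmb10, the remaining immunoproteasome catalytic subunit, fell by 2.14 ± 0.41 (adjusted p = 0.00157). After correction they stood at −0.94 ± 0.23 (adjusted p = 0.0116) and −1.01 ± 0.34 (adjusted p = 0.0424). Without vehicle 2, Psmb10 in resistant nodules stood at −1.0 (adjusted p = 0.0892).

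Transcription factors of class I genes were mixed. Of 18, 5 rose and 1 fell in resistant nodules, 5 rose in the combination, 4 in T-DM1 and 3 in mobocertinib. These shares lay below those of all genes called in either direction, but nearly all were rises. Of all 17933 genes, 3954 rose in resistant, 3165 in the combination, 2996 in T-DM1 and 3015 in mobocertinib. Against these, the share of the list that rose was higher in resistant, the combination and T-DM1. After correction 2, 2, 3 and 2 were higher and 2 were lower in each comparison. Irf2, an interferon regulatory factor, rose by 1.89 ± 0.26 in resistant (adjusted p = 0.000216), 1.64 ± 0.26 in the combination (adjusted p = 0.000741), 1.41 ± 0.26 in T-DM1 (adjusted p = 0.00189) and 1.62 ± 0.26 in mobocertinib (adjusted p = 0.000881). Its libraries stood at 43.1 to 73.5 CPM outside vehicle, against 20.7 and 12.7 CPM in vehicle, and corrected values were 1.83, 1.61, 1.31 and 1.62. Nfkb1, a subunit of NF-kappaB, rose in all 4 comparisons as well, by 1.48 ± 0.28 in resistant nodules (adjusted p = 0.00149), with 0.75 ± 0.19 after correction (adjusted p = 0.0133). Rfx5, which binds the X box of MHC promoters, rose by 1.71 ± 0.39 in resistant nodules (adjusted p = 0.00424; 0.83 ± 0.31, adjusted p = 0.0624, after correction). Irf2, Nfkb1 and Rfx5 were also called in resistant nodules with vehicle 1 or vehicle 2 left out, where the lone vehicle library is again assumed to vary like the other groups.

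Interferon-induced GTPase and chemokine genes had their highest median in T-DM1. Of 14, 6 rose in T-DM1 and none fell, with a median of 1.99. In resistant nodules 3 rose and 1 fell (median 1.29), in the combination 4 rose and 1 fell (1.10), and in mobocertinib 1 rose and none fell (0.61). No gene of the list was called between T-DM1 and mobocertinib. In T-DM1, Gbp2, a guanylate-binding protein gene, was at 108 CPM on average, against 12.4 CPM in vehicle (3.12 ± 0.58, adjusted p = 0.00197), and Irgm2, an immunity-related GTPase gene, rose by 2.31 ± 0.48 (adjusted p = 0.00391). These counts compare with 31.7% of all genes called in T-DM1. After correction 7 rose and 0 fell in T-DM1 (median 1.91), while 1 rose and 1 fell in resistant, 4 and 1 in the combination, and 1 and 1 in mobocertinib. Of 11 tested genes of interferon receptors and kinases, Jak1 rose by 1.43 ± 0.27 in resistant nodules (adjusted p = 0.00128; 0.33 after correction), while Ifngr2, a chain of the interferon-gamma receptor, fell by 1.37 ± 0.30 (adjusted p = 0.00344; −2.06 after correction) and Il10rb by 1.27 ± 0.25 (adjusted p = 0.00182; −0.94 after correction). Each of the 4 comparisons with vehicle had 1 gene of this list higher, and 2, 2, 1 and 2 were lower in resistant, combination, T-DM1 and mobocertinib. After correction 0 were higher and 4 were lower in each of the 4. Without vehicle 2, Ifngr2 in resistant nodules stood at −0.88 (adjusted p = 0.0834).

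Among 15 other class I chains, some passed, where 31.7% to 41% of all genes were called. H2-T24 rose in all 4 comparisons, by 2.01 ± 0.70 in resistant nodules (adjusted p = 0.0352). In each of the 4, that call was lost with vehicle 1 left out and with vehicle 2 left out. Cd1d1, which presents lipids, fell in all 4, by 1.84 ± 0.56 in resistant nodules (adjusted p = 0.0195). H2-M3, which presents formylated peptides, fell by 1.53 ± 0.34 in resistant nodules (adjusted p = 0.00372; −0.75, adjusted p = 0.078, after correction). H2-M2 changed by −4.8 in resistant nodules (adjusted p = 0.00405 by edgeR). That call did not hold without vehicle 2, where H2-M2 stood at −2.7. Without vehicle 2, adjusted p in resistant nodules was 0.141 for H2-T24, 0.135 for Cd1d1 and 0.0545 for H2-M3. After correction 1 chain was higher in each comparison, and 2, 1, 0 and 1 were lower in resistant, combination, T-DM1 and mobocertinib. Of 12 tested genes of peptide loading and trimming, 4 rose in resistant, 3 in the combination, 4 in T-DM1 and 2 in mobocertinib, and 1, Hspa5, fell in mobocertinib (−0.82 ± 0.29, adjusted p = 0.0467; 0.0754 without vehicle 1 and 0.3 without vehicle 2), against 31.7% to 41% of all genes called. After correction 1, 1, 2 and 0 were higher and 0, 1, 0 and 1 were lower. Lnpep, a trimming peptidase with a transcript of 12052 bases, rose by 2.02 ± 0.41 in resistant nodules (adjusted p = 0.002), with 0.22 after correction (adjusted p = 0.513). Of 10 genes from immune receptor families that include receptors for class I, 2 fell in each comparison, Pirb and Klra8. Pirb, an inhibitory receptor of myeloid and B cells, changed by −3.48 ± 0.46 in resistant nodules (adjusted p = 0.000164 by edgeR). Klra8, an NK cell receptor gene, changed by −5.37 there (adjusted p = 0.000983 by edgeR). Cd160 rose in the combination, where it averaged 0.441 CPM, against 0 in vehicle (adjusted p = 0.0328 by edgeR). That call did not hold with either vehicle library left out. After correction 2 of these receptors were lower in each comparison, and 1 was higher in resistant and in the combination.

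Between drug-treated groups, the members were compared without vehicle on either side. Resistant nodules against the combination and against T-DM1 were added after the values were seen. In resistant nodules against the combination, Tapbp stood at −0.78 ± 0.29 (unadjusted p = 0.0187, adjusted p = 0.596 by edgeR), a 0.377- to 0.899-fold level by the 95% interval, Tap1 at −0.83 ± 0.42 (adjusted p = 0.596) and H2-K1 at −0.87 ± 0.48 (adjusted p = 0.598). In CPM, all 3 resistant libraries lay below all 3 combination libraries for these 3 members, and libraries did not overlap for 12.5% of genes. Of 10 members 0 were called, and of all genes 0.00558%. In resistant nodules against T-DM1, Tapbp stood at −0.69 ± 0.29 (unadjusted p = 0.0334, adjusted p = 0.345 by edgeR), Psmb8 at −0.77 ± 0.33 (unadjusted p = 0.0384, adjusted p = 0.356 by edgeR) and Tap1 at −0.93 ± 0.42 (unadjusted p = 0.0434, adjusted p = 0.366 by edgeR). The resistant libraries lay below the T-DM1 ones for Tapbp and Psmb8, 2 of 10 members, and libraries did not overlap for 16.3% of genes. Here 0% of genes were called, and the members' median was −0.52, against 0.03 for all genes. Without resistant 2, Tapbp stood at −0.57 against the combination (adjusted p = 0.952) and −0.48 against T-DM1 (adjusted p = 0.616).

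In resistant nodules against mobocertinib, H2-K1 stood at −0.94 ± 0.48 (adjusted p = 0.623), Tap1 at −0.69 ± 0.41 (adjusted p = 0.644), Erap1 at 0.50 ± 0.30 (adjusted p = 0.641) and Psmb9 at −0.60 ± 0.42 (adjusted p = 0.674). The 95% interval for H2-K1 ran from a 0.252-fold to a 1.08-fold level. Of 10 members 0 were called, of all genes 0.00558%, and libraries did not overlap for 1 member and for 10.1% of genes. In the combination against mobocertinib, the members lay between −0.16 for H2-D1 and 0.32 for Tapbp. None was called, where 0% of genes were, and libraries did not overlap for 1 member and 6.7% of genes. In the combination against T-DM1, they lay between −0.46 for Nlrc5 and 0.35 for H2-K1, with 0% of genes called and no overlap for 0 members and 16.2% of genes. In T-DM1 against mobocertinib, they lay between −0.43 for H2-K1 and 0.47 for Psmb8, with 0.0279% of genes called and no overlap for 0 members and 19% of genes.

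Over these 60 differences the smallest adjusted p by edgeR was 0.345, and DESeq2 called 0 as well. An unadjusted p was under 0.05 for 1 member in resistant against the combination, for 3 in resistant against T-DM1 and for 0 in the other 4 comparisons. The outermost bounds over the 60 intervals were a 0.252-fold and a 3.42-fold level, and a p that misses the threshold does not show that levels were equal. Across all genes, edgeR called 1 in resistant against the combination (1489 at an unadjusted p under 0.05; DESeq2 called 52), 0 in resistant against T-DM1 (2348; DESeq2 505), 1 in resistant against mobocertinib (1394 at an unadjusted p under 0.05; DESeq2 called 30), 0 in the combination against mobocertinib (262; DESeq2 1), 0 in the combination against T-DM1 (915; DESeq2 75) and 5 in T-DM1 against mobocertinib (1714; DESeq2 428). The 8 lists of other pathway genes also had no called gene in these 6 comparisons. The fits without both vehicle libraries called 0 members in each.

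**Figure D3:**
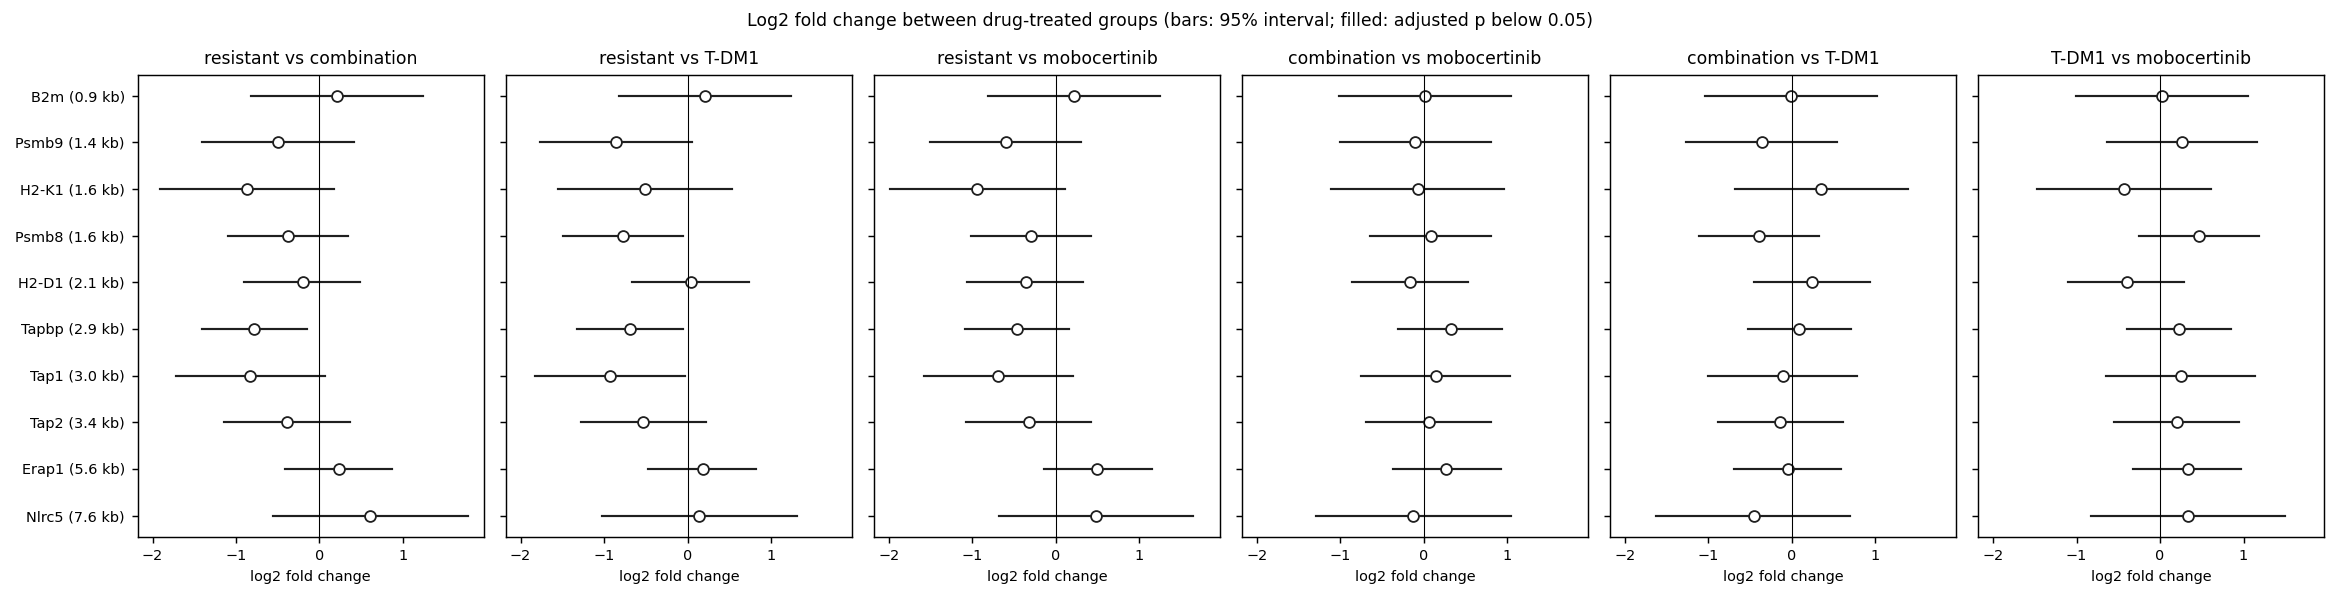
Log2 fold change of each member, with its 95% interval, for resistant against combination, resistant against T-DM1, resistant against mobocertinib, combination against mobocertinib, combination against T-DM1, and T-DM1 against mobocertinib; an open circle has an adjusted p of 0.05 or above. All 60 circles are open, and the intervals lie below 0 for Tapbp against the combination (−0.78) and for Tapbp (−0.69), Psmb8 (−0.77) and Tap1 (−0.93) against T-DM1, all in resistant nodules.

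Libraries of 1 group lay far apart for several members. Resistant 2 was the lowest of 14 libraries for H2-K1, H2-D1, Tap1, Tap2 and Tapbp, at −1.27, −0.51, −1.17, −0.98 and −1.0 on the log2 scale relative to each gene's mean, and the highest for Erap1 (0.93). Mobocertinib 2 was the highest for H2-K1, Tap1 and Tap2 (1.37, 0.99 and 0.56), whereas mobocertinib 1 was the lowest for B2m, Nlrc5 and Psmb8 (−1.21, −1.71 and −0.94). Vehicle 2 was the highest for B2m, Tapbp, Psmb8 and Psmb9 (0.90, 0.53, 1.74 and 1.45). For H2-K1, Tap1 and Tap2 the lowest library was thus a resistant one and the highest a mobocertinib one.

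**Figure D4:**
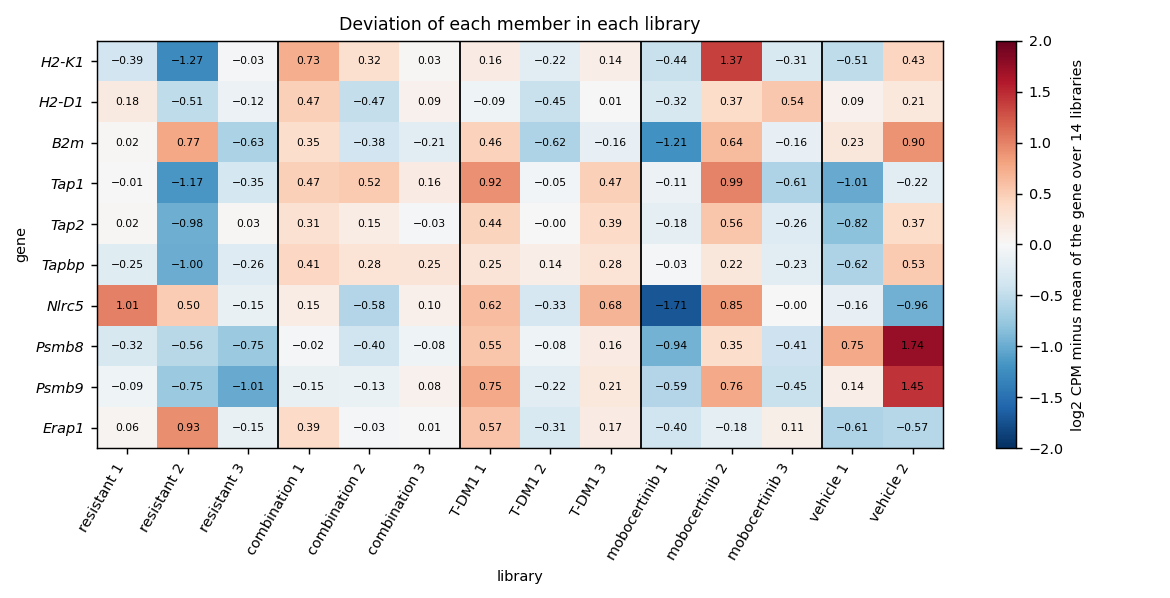
Log2 CPM of each member (rows) in each library (columns, in the order resistant, combination, T-DM1, mobocertinib, vehicle) relative to the gene's mean over the 14 libraries, with red above and blue below that mean. Resistant 2 is blue for H2-K1 (−1.27) and Tap1 (−1.17) but red for B2m (0.77) and Erap1 (0.93), and vehicle 2 is darkest red for Psmb8 (1.74).

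Markers of other cells differed between the same libraries. The summed level of 13 macrophage and monocyte markers, all with counts in every library, was 1920 to 20300 TPM in resistant, 5630 to 8340 in the combination, 3700 to 15800 in T-DM1, 4060 to 15800 in mobocertinib, and 9780 to 14600 in vehicle, and its highest library was resistant 2. The summed level of 10 leukocyte markers, all with counts in every library, was 196 to 720 TPM in resistant, 483 to 590 in the combination, 463 to 787 in T-DM1, 297 to 543 in mobocertinib, and 343 to 354 in vehicle. The 13 T and NK cell markers summed to 18.2 to 125 TPM in resistant, 40.8 to 52.4 in the combination, 36.8 to 133 in T-DM1, 15.1 to 48.3 in mobocertinib, and 14.2 to 26.7 in vehicle. Ncr1, an NK cell receptor, was at 0 in resistant 3, mobocertinib 1 and vehicle 2, where Cd4 and Cd5 were at 0 as well. The 11 epithelial and alveolar type 2 markers, all with counts in every library, summed to 15700 to 57800 TPM in resistant, 30300 to 53300 in the combination, 14100 to 105000 in T-DM1, 20700 to 59600 in mobocertinib, and 82600 to 88400 in vehicle. The 9 B and plasma cell markers summed to 300.0 to 48200 TPM in resistant, 699 to 10700 in the combination, 923 to 51900 in T-DM1, 1330 to 3330 in mobocertinib, and 367 to 629 in vehicle. Their highest libraries were T-DM1 1 and resistant 1, and resistant 1 was also the highest for Nlrc5. Mobocertinib 2, with 1330 TPM of these markers, stood at 17.8 CPM for Nlrc5, above T-DM1 1 at 15.1 CPM. Pax5 was at 0 in vehicle 1 and 2, and Mzb1 in vehicle 2. The 10 endothelial markers summed to 456 to 659 TPM in resistant, 422 to 591 in the combination, 290 to 613 in T-DM1, 446 to 737 in mobocertinib, and 138 to 174 in vehicle. The 10 fibroblast and mural markers summed to 175 to 1500 TPM in resistant, 204 to 356 in the combination, 276 to 607 in T-DM1, 165 to 320 in mobocertinib, and 37.1 to 61.8 in vehicle, and all markers of both lists had counts in every library. TPM placed vehicle low for most genes, so these sums do not by themselves compare cell content with vehicle. Ptprc, a leukocyte marker, stood at 51.1 and 34.8 CPM in vehicle 1 and 2, but at 4.67 and 2.31 TPM. Outside vehicle it stood at 8.18 to 53.9 CPM and at 2.53 to 18.78 TPM. The part of these markers in the members' levels was not tested.

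Some members varied together over the 12 libraries outside vehicle. Of 45 pairs, 38 had a positive Pearson's r of log2 CPM and 7 a negative one, and 13 had a permutation p below 0.05 after Benjamini-Hochberg adjustment over the 45. The same shares over pairs of other genes were not computed, so these counts are not shown to be particular to the members. Tap1 and Tap2 had r = 0.94 (permutation p = 2e-05, adjusted p = 0.0009; Spearman's rho = 0.88, permutation p = 0.00035, adjusted p = 0.0066), and Psmb8 and Psmb9 had r = 0.91 (permutation p = 5e-05, adjusted p = 0.0011; rho = 0.87, permutation p = 0.00059, adjusted p = 0.0066). Without the 2 libraries farthest from the median of the first gene, r was 0.88 and 0.92, and with values centred on group means it was 0.91 for both pairs. H2-K1 had r = 0.88 with Tap2 (permutation p = 0.00018, adjusted p = 0.0027; rho = 0.86, permutation p = 0.00049, adjusted p = 0.0066), 0.72 without the 2 farthest libraries, mobocertinib 2 and resistant 2, and 0.92 when centred on groups.

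B2m varied with Nlrc5 and with Erap1. B2m had r = 0.80 with Nlrc5 (permutation p = 0.0013, adjusted p = 0.0083; rho = 0.80, permutation p = 0.0024, adjusted p = 0.018), 0.69 without mobocertinib 1 and resistant 2, and 0.83 when centred on groups. With Erap1 it had r = 0.76 (permutation p = 0.0036, adjusted p = 0.016; rho = 0.71, permutation p = 0.012, adjusted p = 0.042), 0.56 without the same 2 libraries and 0.77 when centred. Nlrc5 and Erap1 had r = 0.52 with each other, which did not pass (permutation p = 0.088, adjusted p = 0.19; rho = 0.52, permutation p = 0.089, adjusted p = 0.19). Nlrc5, the transactivator, had r = 0.20 with H2-K1 (permutation p = 0.52, adjusted p = 0.62; rho = 0.21, permutation p = 0.51, adjusted p = 0.62) and the same r with Tap1 (permutation p = 0.52, adjusted p = 0.62; rho = 0.35, permutation p = 0.26, adjusted p = 0.44). When centred on groups, Nlrc5 had r = 0.53 with H2-K1, 0.45 with Tap1, 0.41 with Tap2, 0.20 with Tapbp and 0.44 with Erap1. So centred, it had r = 0.73 with H2-D1, 0.80 with Psmb9 and 0.93 with Psmb8, and the centred values were not tested. The heavy chains had r = 0.51 with each other (permutation p = 0.086, adjusted p = 0.19, with rho = 0.34, permutation p = 0.28, adjusted p = 0.45). That r was 0.17 without the 2 farthest libraries, mobocertinib 2 and resistant 2, and 0.49 when centred on groups.

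The low r of B2m with H2-K1, Tap1 and Tap2 rested in part on resistant 2. Without it, r of B2m was 0.70 with H2-K1 (0.19 with it; permutation p = 0.55, rho = 0.24, permutation p = 0.46), 0.67 with Tap1 (0.15 with it; permutation p = 0.63, rho = 0.31, permutation p = 0.33) and 0.74 with Tap2 (0.03 with it; permutation p = 0.92, rho = 0.29, permutation p = 0.35). Leaving out this library was chosen after its values were seen, and no test was run on what remained. The pairs share libraries, and Tap1, Tap2, Psmb8 and Psmb9 share a stretch of chromosome 17, where Tap1 and Psmb9 share some exon bases.

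**Figure D5:**
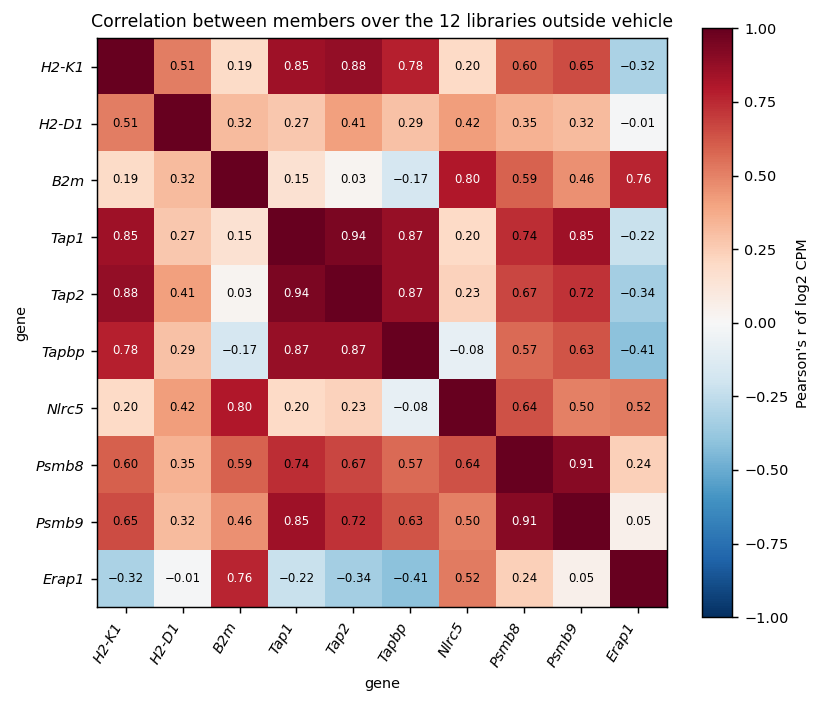
Pearson's r of log2 CPM between each pair of members over the 12 libraries outside vehicle, with red for positive and blue for negative values. Tap1, Tap2, Tapbp and H2-K1 form a red block (0.78 to 0.94), and B2m is red with Nlrc5 (0.80) and Erap1 (0.76) but near 0 with Tap2 (0.03).

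Genes whose pattern was most like that of the members were ranked by Pearson's r. Among 9985 genes with a mean log2 CPM of at least 3, over the 14 libraries, those of highest r with the members' mean log2 CPM were Irf9 (0.855), which encodes the DNA-binding part of the interferon-stimulated factor ISGF3, H2-Q7 (0.853), Adrb1 (0.822), Parp12 (0.791), Cd72 (0.786), Irf1 (0.78), Bpifb1 (0.774) and H2-Q6 (0.772). Over the 12 libraries outside vehicle they were H2-Q7 (0.871), H2-Q6 (0.858), Trp53i11 (0.853), Irf9 (0.85), Cd72 (0.84), Irf1 (0.826), Plac8 (0.806) and Adrb1 (0.804). These values are descriptions, since the genes were the highest of all those compared. H2-Q7, a class I-like gene, stood at 40.2, 26.9 and 44.2 CPM in resistant nodules, 97.1, 76.3 and 57.7 in the combination, 71.4, 37.8 and 57 in T-DM1, 21.3, 246 and 33 in mobocertinib, and 29.4 and 61 in vehicle, so mobocertinib 2 stood highest here as for H2-K1. H2-Q7 shares 50-base words with H2-D1, so reads may be split between them.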

How the data were processed

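Bulk RNA-seq of 14 libraries was analysed from 2 deposited tables. One holds the authors' counts, whole numbers, for 55291 genes. The other holds the authors' TPM for 47606 genes. STAR, RSEM and the mm10 build are named per the submitters' processing notes, without versions or settings. Each library's columns were matched by its title, and replicate numbers follow accession order.

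Counts were tested with edgeR 4.0.16 (R 4.3.3), with TMM factors, filterByExpr by group and a robust quasi-likelihood F-test in 1 fit of group means over 14 libraries and 17933 genes, with 9 residual degrees of freedom. A gene was called where its p, adjusted by Benjamini-Hochberg over all genes, was below 0.05. Totals ran from 19344015 to 31287261 counts a library. SE is the log2 fold change divided by the square root of F. The correction for length and GC used spline offsets per library over 17565 genes. TPM were tested as log2(TPM + 1) with limma 3.58.1 on 15774 genes with a TPM of 1 in 2 libraries. DESeq2 1.42.0, RLE and upper-quartile factors, no filter and left-out libraries were alternatives. The fit was tested on simulated data. Correlations used 100000 permutations, and their repeats without resistant 2, without the 2 farthest libraries and with values centred on groups were chosen after seeing the data, as were the comparisons of resistant with the combination and with T-DM1. All 13 pairs of libraries within groups differed beyond sampling noise, and 0 were identical.

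Positions are from GENCODE M21 (mm10), and promoters from RefSeq. Motifs were searched in 250 bases before each start. Members, lists, ratios, the rule for named genes (all members, and up to 4 genes called in each list by smallest p) and tests were chosen with earlier results of these data known. Genes most like the members were the 8 of highest r. The values of 1 gene of the transcription list and 1 of the B and plasma cell markers are not reported here.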

Additional observations from a re-analysis of the deposited data

How the results depend on the processing

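No paired analysis was possible because the labels give no pairing of libraries. RLE factors and DESeq2 changed no call of a member. With upper-quartile factors Erap1 in resistant nodules was not called (0.79, adjusted p = 0.0799 by edgeR), and with no filter Psmb8 in T-DM1 was not (−0.94, adjusted p = 0.0841), which left 0 members there. Length and GC correction called 1 member in resistant and 0 in the combination, T-DM1 and mobocertinib. It changed the sign of 26 of 100 member values, and among values called in either fit it turned Erap1 (−0.08), Creb1 (−0.12), Npepps (−0.01) and Psme1 (0.22) in resistant, where Psmb5 stood at 0.16, and Psme1 in the combination (0.04) and T-DM1 (0.21). It split calls in T-DM1 as 1521 higher and 2484 lower, against 2996 and 2680 without it.

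From TPM, 6 members were called in each comparison with vehicle, and 9483 genes in the combination, 9610 in T-DM1 and 9159 in mobocertinib. Calls were 9410 higher and 755 lower in resistant, 8950 and 533 in the combination, 9056 and 554 in T-DM1, and 8669 and 490 in mobocertinib. TPM changed the sign of 25 of 100 member values. Among values called in either setting, signs turned in resistant for H2-D1 (1.55), Tap2 (1.64), Tapbp (1.54), Psmb8 (0.42), Cd274 (0.06), H2-M3 (0.17), Ifngr2 (0.55), Il10rb (0.81), Pomp (0.73), Psma6 (0.21) and Psme1 (0.76). They turned in the combination for H2-D1 (1.64), Psmb8 (0.60), Cd1d1 (0.02), Ifngr2 (1.11), Il10rb (1.02), Pomp (0.66), Psma6 (0.28), Psmb10 (0.49), Psme1 (0.80) and Psme2 (0.06), and in T-DM1 for H2-K1 (1.78), H2-D1 (1.37), Psmb8 (0.94), Il10rb (1.04), Pomp (0.93), Psma5 (0.00), Psma6 (0.23), Psme1 (1.01) and Psme2 (0.30). In mobocertinib they turned for Tapbp (1.84), Psmb8 (0.35), H2-M3 (0.42), Hspa5 (1.07), Ifngr2 (0.82), Il10rb (0.90), Pomp (0.66), Psmb10 (0.15), Psmb2 (0.24) and Psme1 (0.69). The cause was not tested.

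Leaving out 1 library at a time gave 4602 to 7349 called genes and 0 to 3 members in resistant against vehicle, 3630 to 6136 and 0 to 2 in the combination, 2750 to 5784 and 0 to 1 in T-DM1, and 3182 to 5954 and 0 to 2 in mobocertinib, with the lowest counts without vehicle 2. It gave 0 genes in resistant against the combination, 0 to 6 in resistant against T-DM1, 0 to 1 in resistant against mobocertinib and 0 to 25 in T-DM1 against mobocertinib, with 0 members in each. In resistant against the combination, DESeq2 called 52 genes, the corrected fit 3, TPM 0 and the fit without both vehicle libraries 2. In resistant against T-DM1, DESeq2 called 505 and TPM 7. In resistant against mobocertinib, DESeq2 called 30 genes, the corrected fit 2, TPM 0 and the fit without both vehicle libraries 2. In T-DM1 against mobocertinib, DESeq2 called 428, TPM 12 and the fit without both vehicle libraries 2. DESeq2 called 75 in the combination against T-DM1 and 1 in the combination against mobocertinib. Depth limits Nlrc5 most, at 60 to 549 counts.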
